A study of Mus musculus with 6 samples.

Results

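The phase II conjugation enzymes of mouse liver were followed across livers with and without SIRT1, an NAD-dependent protein deacetylase. Members were all probes on the array, control spots aside, whose gene name in the scanner files belonged to the glutathione transferases (Gst and Mgst), the UDP-glucuronosyltransferases (Ugt1 to Ugt3) or the sulfotransferases (Sult). That rule gave 64 probes of 47 genes, out of 41174 probes with 27962 distinct names. It used names only and no measured value. The glutathione transferases had 32 probes of 23 genes, the UDP-glucuronosyltransferases 18 probes of 13 genes and the sulfotransferases 14 probes of 11 genes.

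Phase II enzymes attach a polar group to drugs, hormones, bilirubin and reactive products of metabolism, so that these can leave the liver cell in bile or blood. Glutathione transferases join glutathione to electrophiles such as lipid peroxidation products, UDP-glucuronosyltransferases transfer a sugar from a UDP-sugar inside the endoplasmic reticulum, and cytosolic sulfotransferases transfer sulfate from the donor PAPS. Liver is a main site of all of these reactions, and its levels of these enzymes are known to be set by receptors for foreign compounds and by sex-dependent growth hormone signals.

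The Control group consisted of Lox control mice and the SIRT1 LKO group of mice with SIRT1 deleted in the liver, both on a mostly C57BL/6 background. All animals were 10-week-old males fed chow without restriction and killed at 4 pm; neither the Cre line nor the deleted exons is stated in the labels. Each group had 3 pools of RNA from 2 mice each, and each pool was measured once on a 1-colour Agilent array. The design text names PPAR-alpha phenotypes as the purpose and does not mention conjugation.

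A level below is the log2 intensity of a probe minus the 75th percentile of its array, so that 0 is the array's upper quartile. Levels can be compared between pools for 1 probe and not between probes. Probes entered the test if every array of 1 group or the other (3 arrays) read them well above background, and the difference (SIRT1 LKO minus Control) was tested with limma, with p-values adjusted over the 23590 probes tested. The 75th percentile was 1005 to 1056 intensity units on 5 arrays and 1289 on the array of SIRT1 LKO pool 3, with 52.2% to 66.3% of probes well above background. The control arrays lay on 1 slide, SIRT1 LKO pools 1 and 2 on a second and pool 3 on another, so that no slide held both groups. SIRT1 LKO pool 3 stood apart in a further way. Its column in the authors' deposited value table differed from its scanner file, with a median ratio of 0.719 and 0.853% of probes within 1%, whereas on the other 5 arrays about 99.8% of probes were within 1%. Values below are from the scanner files unless the value table is named, and the leading results are also given with the value table in its place and without the pool. The Sirt1 probes differed by -0.24 (limma adjusted p = 0.243) and -0.02 (adjusted p = 0.941), which checks no label, since it is not known whether they lie in the deleted part. P-values measure the spread between pools, and 3 arrays per group limit the precision. In bulk liver RNA, fewer cells of a type and less RNA per cell cannot be told apart. Of the hepatocyte markers Alb, Apoa1, Ttr, Tat, Cps1, Hnf4a, Trf, Ahsg and Tdo2, all 9 were tested and 0 passed the threshold by limma, with 0 at an unadjusted p under 0.05.

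The member with by far the largest difference, Ugt1a9, is 1 of several genes that share the Ugt1a locus. In this locus each gene has a first exon of its own, which codes for the substrate-binding part, and all of them are spliced to the same later exons. Probes can therefore read 1 first exon or all transcripts together, and the 4 probes of the locus are shown because the result turns on how they differ. They lie on the plus strand of chromosome 1, in the mm7 coordinates of the scanner files, and have 60 bases each. Of the shared probe only bases 1 to 30 are printed.
Ugt1a9 probe, chr1:87975078-87975137: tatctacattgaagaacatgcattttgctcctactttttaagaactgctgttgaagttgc
Ugt1a6b second probe, chr1:88010877-88010936: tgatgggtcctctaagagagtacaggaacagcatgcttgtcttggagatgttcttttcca
Ugt1a1 probe, chr1:88115927-88115986: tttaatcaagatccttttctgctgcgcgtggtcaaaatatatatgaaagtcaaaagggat
Ugt1a shared probe, bases 1 to 30, chr1:88122519-88122548: ttgtgccggaatttgatgaaaaccaaagta
The shared probe is filed under Ugt1a6b, but RefSeq lists its accession for 4 symbols (Ugt1a1, Ugt1a10, Ugt1a5 and Ugt1a6b). The other 3 probes list 1 symbol each. These listings are the basis for calling 1 probe shared, and which exon each probe reads was not determined here. Whether they also bind RNA of similar first exons of the locus, such as Ugt1a6a, was not tested.

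Across the whole set, no member passed the threshold with the scanner files. The count was 0 of 56 tested probes (44 genes), beside 15 of 23590 probes on the array (0.0636%). At an unadjusted limma p under 0.05 there were 12 of 56 member probes, or 21.4%, against 21.2% of all probes; 7 of these were higher in SIRT1 LKO (background 10.7%) and 5 lower (background 10.5%). The groups did not overlap for 12 of 56 probes (21.4%), against 28.9% of all probes. Of these, SIRT1 LKO lay above Control for 7 (background 14.9%) and below it for 5 (background 13.9%). These shares are near or below the background. With the value table for SIRT1 LKO pool 3, 1 member passed (Ugt1a9) against 1.31% of all probes, and 16 of 56 did not overlap against 34.1%. Without that pool 1 member passed (Ugt1a9 again) against 2.96%.

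Most member levels lay close together in the groups. For 41 of 56 probes the difference was smaller than 1.2-fold, beside 64.1% of all probes, and for 2, Ugt1a9 and Gstm2, it was larger than 1.5-fold, beside 9.24%. The difference was above 0 for 36 of 56 members, beside 52.7% of all probes. Median differences on the log2 scale were 0.04 for the glutathione transferases, 0.02 for the UDP-glucuronosyltransferases and 0.17 for the sulfotransferases, against 0.02 for all tested probes. The sulfotransferase median rests on 9 probes and was 0.07 with the value table, when the median of all probes was 0.04.

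**Figure D1:**
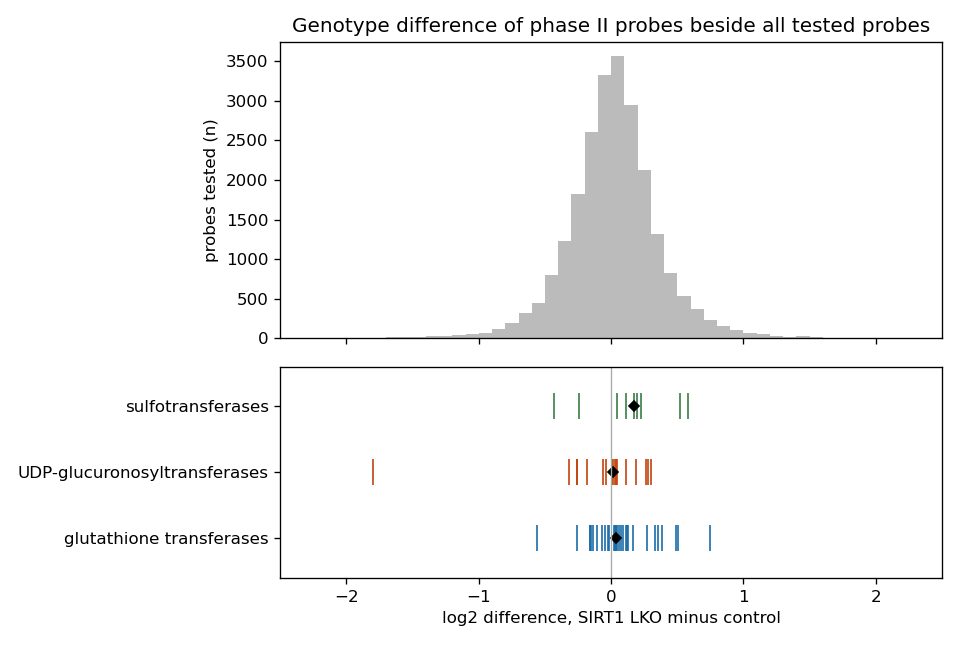
The upper panel counts all 23590 tested probes by their log2 difference (SIRT1 LKO minus Control, bins on the x axis), and the lower panel draws each tested member probe as a tick on the same axis, by family, with a diamond at the family median (0.17, 0.02 and 0.04 from top to bottom). The ticks sit within the main body of the histogram, and 1 glucuronosyltransferase probe, Ugt1a9, lies at -1.80.

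Among the UDP-glucuronosyltransferases the Ugt1a9 signal was low in every SIRT1 LKO pool. Ugt1a9 belongs to the group of glucuronosyltransferases that take bulky phenols. Its level was -0.72, 0.02 and -0.28 in Control pools 1 to 3 and -1.97, -1.89 and -2.52 in the SIRT1 LKO pools. All SIRT1 LKO pools lay below all Control pools, and the gap between the groups was wider than the range of either. The means were -0.32 ± 0.37 and -2.13 ± 0.34 (SD, n = 3 each). The difference was -1.80 (SE 0.24, 95% confidence interval -2.39 to -1.22), or 3.49-fold lower, with a limma adjusted p of 0.0704. By size this was the fall ranked 31 of all tested probes, and by p it ranked 62. With the value table SIRT1 LKO pool 3 stood at -1.69 and the difference was -1.53 (limma adjusted p = 0.0455). Without the pool it was -1.60 (limma adjusted p = 0.0475), from 3 Control and 2 SIRT1 LKO pools. With the slide as a random block the difference was -1.84 (limma adjusted p = 0.341), and slide and genotype cannot be told apart. The call therefore depended on which values stood for SIRT1 LKO pool 3, and also on the processing, the fit and the other pools. With the scanner values of every pool, Ugt1a9 passed with a variance trend and robust fitting (limma adjusted p = 0.0406). It also passed with weighted arrays (adjusted p = 0.0120). It did not pass with normexp background correction (adjusted p = 0.721) or with any other pool left out (adjusted p 0.104 to 0.236). The probe was lower with either source and without SIRT1 LKO pool 3, by 2.88-fold to 3.49-fold.

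The other probes of the locus did not show a difference of that size. Ugt1a1 conjugates bilirubin. It read 3.61, 3.57 and 3.73 in Control and 3.81, 3.69 and 3.77 in SIRT1 LKO, a difference of 0.12 (SE 0.10, limma adjusted p = 0.513). Its groups overlapped, and with the value table the difference was -0.01. Ugt1a6b, a phenol-conjugating enzyme, read 1.21, 1.23 and 1.39 in Control and 1.48, 1.33 and 1.16 in SIRT1 LKO at its second probe, a difference of 0.05 (adjusted p = 0.846) with overlapping groups. The shared probe stood at 7.57, 7.55 and 7.52 in Control and at 7.94, 7.91 and 7.62 in SIRT1 LKO. There SIRT1 LKO lay above Control in all pools, by 0.28 (SE 0.11, adjusted p = 0.233), and the value table gave 0.36 (adjusted p = 0.0662).

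Within each array, the log2 ratio of Ugt1a9 to its neighbours removes any scaling of the array. The Ugt1a9 to Ugt1a1 ratio was -4.33, -3.55 and -4.01 in Control and -5.78, -5.58 and -6.29 in SIRT1 LKO, a difference of -1.92. Against the second Ugt1a6b probe the difference of the ratio was -1.85, and against the shared probe -2.08. With the value table these were -1.52, -1.55 and -1.88. The groups did not overlap in any of these ratios. Ugt1a9 was taken up for its difference on these same arrays, and every ratio uses it. The separation of the ratios follows from that choice and is no separate evidence, so no p-value is given for it. These ratios show unequal differences of the probes and do not say that any 1 of them was unaltered.

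**Figure D2:**
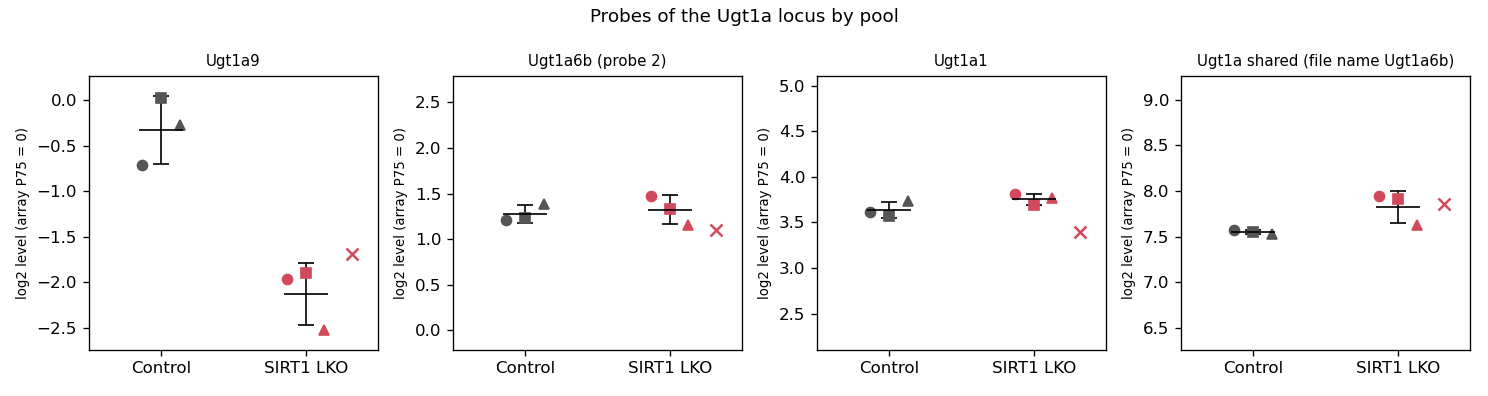
Level (log2, array 75th percentile = 0) of the 4 probes of the Ugt1a locus in each pool, with circles, squares and triangles for pools 1, 2 and 3, crosses for SIRT1 LKO pool 3 from the value table, and bars for the mean ± SD of 3 pools; each panel spans the same number of log2 units. Only Ugt1a9 shows a wide gap, with Control between -0.72 and 0.02 and SIRT1 LKO between -2.52 and -1.89.

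The 250 bases upstream of the Ugt1a9 and Ugt1a1 starts are shown because the 2 genes share later exons and differ in their promoters. They come from RefSeq on GRCm38.p6, plus strand, with matches to the motifs searched in capitals. RefSeq windows were held for 41 of the 47 member genes.
Ugt1a9 upstream, chr1:88070529-88070778: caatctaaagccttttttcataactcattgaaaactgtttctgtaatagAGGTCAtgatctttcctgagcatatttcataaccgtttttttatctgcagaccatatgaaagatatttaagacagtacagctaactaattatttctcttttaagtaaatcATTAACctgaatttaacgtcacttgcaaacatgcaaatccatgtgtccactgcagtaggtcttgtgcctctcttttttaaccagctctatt
Ugt1a1 upstream, chr1:88211709-88211958: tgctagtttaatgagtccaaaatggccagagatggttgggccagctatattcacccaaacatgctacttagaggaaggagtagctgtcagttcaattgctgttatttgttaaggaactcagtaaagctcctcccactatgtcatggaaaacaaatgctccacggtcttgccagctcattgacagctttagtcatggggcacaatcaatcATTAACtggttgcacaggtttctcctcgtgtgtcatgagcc
Both strands were searched for AGGTCA, a core of nuclear receptor sites, for GTTAAT, a core of HNF1 sites, for TGACNNNGC, the core of antioxidant response elements, for GCGTG, the core of xenobiotic response elements, and for TATAAA, the TATA box. The Ugt1a9 window held AGGTCA at 201 bases before the start and GTTAAT, on the minus strand, at 91 bases. The Ugt1a1 window held GTTAAT on the minus strand at 41 bases. Neither window held these letters for the other motifs. Over 32851 windows of this length in the same table, AGGTCA was in 14.0% and GTTAAT in 6.43%, and among the 73 windows of members they were in 11 and 14. A match in these letters is a description and no sign that a factor binds there.

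Of the 3 Ugt2a probes tested, all were higher in SIRT1 LKO than in Control by a small amount, except that with normexp background correction the second Ugt2a1 probe was at -0.03. Ugt2a1, first described as an olfactory enzyme, read 4.55, 4.49 and 4.50 in Control and 4.85, 4.74 and 4.85 in SIRT1 LKO at its second probe. The groups did not overlap and differed by 0.30 (SE 0.09, limma adjusted p = 0.139); with the value table the difference was 0.21. Its first probe differed by 0.26 (adjusted p = 0.195), and the third probe was not well above background on any array. Ugt2a3 read 6.27, 6.25 and 6.26 against 6.49, 6.45 and 6.40, a difference of 0.19 (adjusted p = 0.263). All pools of SIRT1 LKO were above all pools of Control for these 3 probes, and none passed the threshold. From the value table SIRT1 LKO pool 3 stood at 3.50 at the first Ugt2a1 probe, inside the Control range, and the difference there was 0.22.

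The Ugt3a probes ran the other way. Ugt3a1 and Ugt3a2 belong to a small branch that uses other UDP-sugars than UDP-glucuronate. The Ugt3a1 probe read 5.19, 5.28 and 5.29 in Control and 5.06, 4.97 and 4.96 in SIRT1 LKO, a difference of -0.26 (SE 0.09, adjusted p = 0.183). The first Ugt3a2 probe read 5.80, 5.87 and 5.89 against 5.69, 5.51 and 5.61, also -0.25 (adjusted p = 0.197), and the second differed by -0.19 (adjusted p = 0.380). For Ugt3a1 and the first Ugt3a2 probe SIRT1 LKO lay below Control in all pools, while the second Ugt3a2 probe overlapped through SIRT1 LKO pool 3, at 1.37. That pool stood at 0.79 in the value table, where the second Ugt3a2 probe did not overlap and its difference was -0.38 (adjusted p = 0.144); without the pool it was -0.26, again with no overlap.

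The Ugt2b enzymes, which conjugate steroids and bile acids, were close to level apart from Ugt2b35. That probe read 4.98, 4.72 and 4.91 in Control and 4.60, 4.59 and 4.46 in SIRT1 LKO. All SIRT1 LKO pools were lower, by 0.32 on average (difference -0.32, SE 0.11, adjusted p = 0.170; -0.31 with the value table). The other 6 probes, of Ugt2b1, Ugt2b34, Ugt2b37, Ugt2b38 and Ugt2b5, differed by -0.06 to 0.04 and all overlapped. Several of these genes are close copies: RefSeq lists the first Ugt2b37 probe also for Ugt2b36, and the Ugt2b38 probe also for Ugt2b37 and Ugt2b5. Counted together, 8 of 17 glucuronosyltransferase probes did not overlap, 4 above and 4 below Control, beside 28.9% of all probes, and 7 had an unadjusted limma p under 0.05, beside 21.2%. The family is small and several of its probes share a locus or a close copy, so that the probes are not independent.

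**Figure D3:**
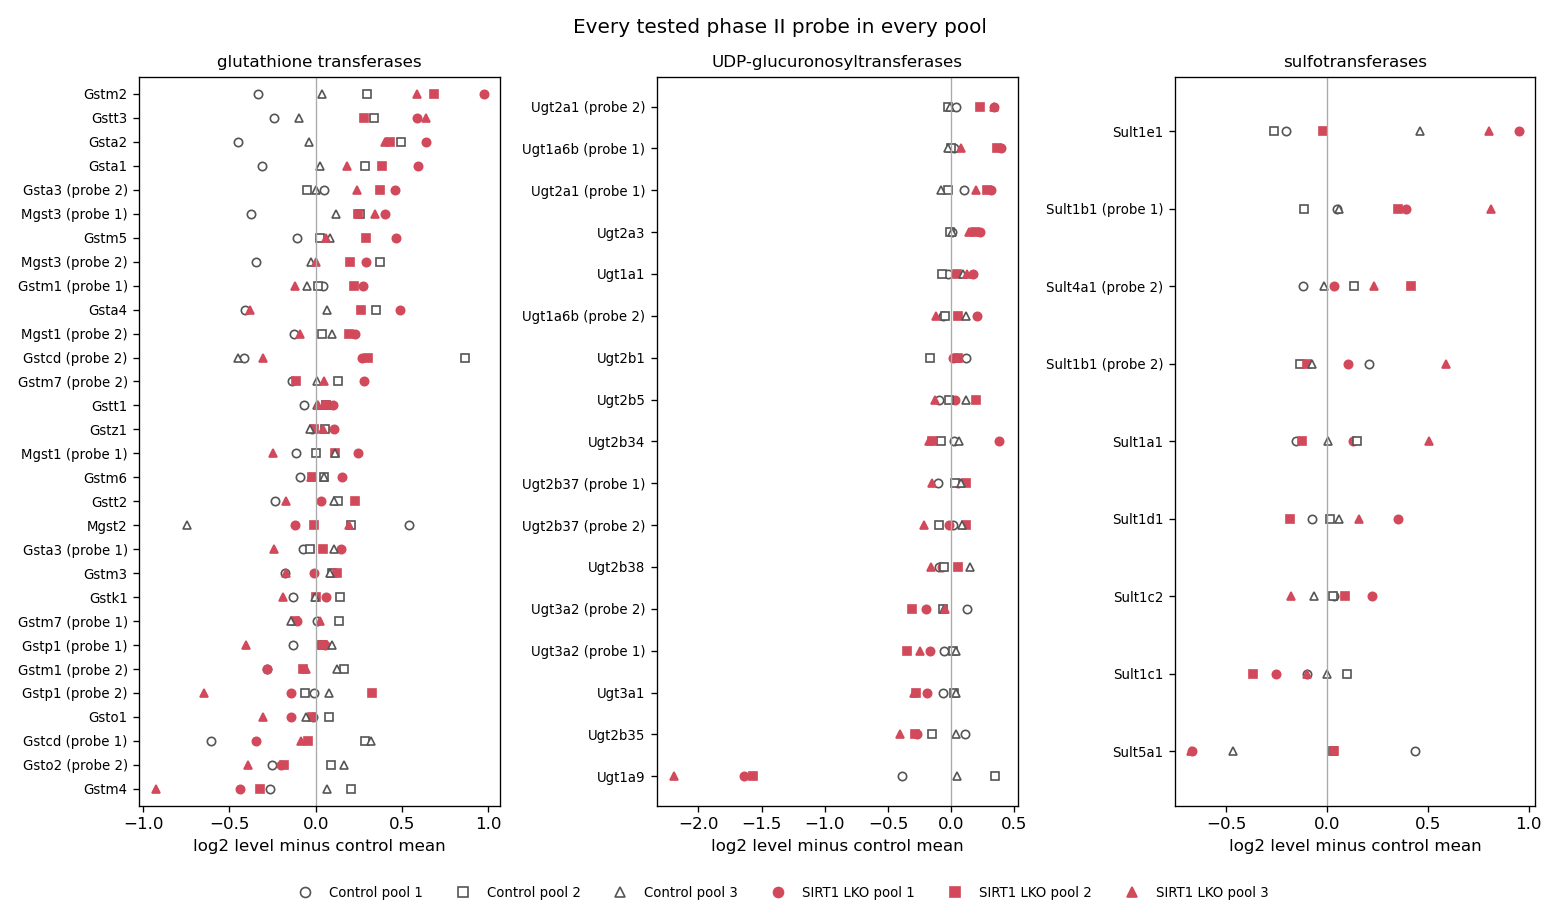
Level of every tested member probe in every pool, as log2 distance from the mean of the Control pools (x axis), with open grey symbols for Control and filled red symbols for SIRT1 LKO; symbol shapes mark the pools, and probes are ordered by their difference within each family. Open and filled symbols intermix for 44 of the 56 probes, and the filled symbols of Ugt1a9 lie far to the left of its open ones.

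Among the glutathione transferases, 19 of 30 tested probes were higher in SIRT1 LKO and 11 lower, and none passed the threshold. With the scanner files 3 of 30 did not overlap (Gstm2 and the second Gsta3 probe above Control, Gstm4 below), beside 28.9% of all probes, and 4 had an unadjusted limma p under 0.05, beside 21.2%. With the value table the first count was 7 of 30, beside 34.1% of all probes. It was also 7 of 30 without SIRT1 LKO pool 3, beside 51.7% of all probes. A smaller group is separated more easily, so the counts with and without the pool are not alike. The mu class held both the highest and the lowest difference of the family. Gstm2, a mu-class enzyme, read 3.75, 4.38 and 4.12 in Control and 5.06, 4.77 and 4.67 in SIRT1 LKO. Every SIRT1 LKO pool was above every Control pool. The difference was 0.75 (SE 0.19, limma adjusted p = 0.118), or 1.68-fold higher, with 0.81 under the value table (adjusted p = 0.0679) and 0.83 without SIRT1 LKO pool 3 (adjusted p = 0.0772). With the slide as a random block it was 0.73 (adjusted p = 0.418).

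Gstm4, a neighbour in the same gene cluster, went in the opposite direction. It read 2.58, 3.05 and 2.91 in Control and 2.41, 2.53 and 1.92 in SIRT1 LKO, a difference of -0.56 (SE 0.20, adjusted p = 0.184). The groups did not overlap, but Control pool 1 and SIRT1 LKO pool 2 were nearly level, and with the value table the difference was -0.38. Gstm5 differed by 0.27 (adjusted p = 0.284), with SIRT1 LKO pool 3 inside the Control range. Gstm1, an abundant liver form, differed by 0.12 at its first probe and by -0.14 at its second, and Gstm3, Gstm6 and both Gstm7 probes by -0.07 to 0.07. These mu genes are close copies of each other on chromosome 3, and shared signal between their probes was not tested beyond a search for runs of 20 shared bases, which found none.

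The alpha class, which also reduces lipid hydroperoxides, was higher in SIRT1 LKO at 4 of 5 probes. The second Gsta3 probe read 8.01, 7.91 and 7.97 in Control and 8.42, 8.33 and 8.20 in SIRT1 LKO, with no overlap and a difference of 0.36 (SE 0.10, adjusted p = 0.130). The first Gsta3 probe, which lies beside it on chromosome 1, read 7.99, 8.04 and 8.18 against 8.22, 8.11 and 7.83, a difference of -0.02 (adjusted p = 0.951) with overlapping groups. In the value table, however, that probe differed by 0.10, and without Control pool 3 by 0.04, so that the sign of its difference was unsettled. The 2 probes of 1 gene therefore disagreed by 0.37 with the scanner files.

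Gsta1 and Gsta2 are near-identical genes, and their probes are shown because they overlap in sequence. From base 33 of the Gsta1 probe and base 1 of the Gsta2 probe they share 28 bases with 1 mismatch, T8A, which has the base of Gsta1 first and is counted from 1 at the 5′ end of the shared stretch. The mismatch is in capitals. The scanner files place the Gsta2 probe on the minus strand at chr9:78408171-78408230 (mm7).
Gsta1 probe: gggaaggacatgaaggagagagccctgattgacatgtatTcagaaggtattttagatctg
Gsta2 probe: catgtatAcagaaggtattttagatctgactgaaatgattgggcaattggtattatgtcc
RefSeq lists both accessions for Gsta1 and Gsta2, so the values of these 2 genes are uncertain as separate measurements. Gsta1 read 4.92, 5.52 and 5.26 in Control and 5.82, 5.62 and 5.41 in SIRT1 LKO, a difference of 0.39 (SE 0.18, adjusted p = 0.279). Gsta2 read 2.73, 3.67 and 3.14 against 3.81, 3.61 and 3.58, a difference of 0.49 (SE 0.24, adjusted p = 0.286). In both, Control pool 2 reached into the SIRT1 LKO range and Control pool 1 was lowest.

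Gsta4 clears 4-hydroxynonenal, a lipid peroxidation product, and its probe is printed 10 times on each array, which separates spot error from pool error. The SD between spots of 1 array was 0.04 to 0.15, with 7 to 10 spots left after outliers were set missing. Its pool levels were 1.79, 2.54 and 2.26 in Control and 2.68, 2.46 and 1.81 in SIRT1 LKO. The spread between pools (SD 0.38 and 0.45) was wider than that between spots, and the difference of 0.12 (SE 0.28, adjusted p = 0.831) was well inside it. With the value table the difference was 0.36.

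Of the theta class, Gstt3 read 4.74, 5.32 and 4.88 in Control and 5.57, 5.26 and 5.62 in SIRT1 LKO, a difference of 0.50 (SE 0.18, adjusted p = 0.191). Control pool 2 lay above SIRT1 LKO pool 2, so the groups overlapped. Gstt1 and Gstt2 differed by 0.06 and 0.03. Gstp1, the pi-class enzyme that is abundant in male mouse liver, differed by -0.10 and -0.15 at its probes with the scanner files and by 0.12 and 0.13 with the value table, so that its direction turned with the source of SIRT1 LKO pool 3. RefSeq lists its first probe also for Gstp2.

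The remaining glutathione transferases lay near 0. Gstz1, an isomerase of tyrosine breakdown, differed by 0.04, the mitochondrial and peroxisomal Gstk1 by -0.04, and Gsto1, an omega-class reductase, by -0.16. The membrane-bound Mgst1 differed by 0.03 and 0.11 at its probes, Mgst2 by 0.02, and Mgst3 by 0.33 and 0.16. Mgst2 was well above background on 1 of 3 Control and 3 of 3 SIRT1 LKO arrays, with a Control SD of 0.67. Its 0.02 is therefore a reading near background and does not show equal levels. Gsto2 differed by -0.26 at the probe tested, and Gstcd, which has a transferase-like domain, by -0.16 and 0.09. Limma adjusted p-values in this group were 0.323 or higher. The first Gsto2 probe and the third Mgst3 probe were not well above background on any array.

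Within this family the same pool often stood lowest in its group. Control pool 1 was the lowest Control pool for 22 of 30 glutathione transferase probes (73.3%), against 35.8% of all probes. SIRT1 LKO pool 3 was the lowest SIRT1 LKO pool for 22 of 30 as well, against 44.9% of all probes. With the value table that pool was lowest for only 10 of 30, against 36.9% of all probes. Among the glucuronosyltransferases SIRT1 LKO pool 3 was lowest for 12 of 17 probes with the scanner files and for 14 of 17 with the value table. Of their Control pools, pool 2 was lowest for 8 of 17 and pool 1 for 7 of 17. These counts describe pools of 2 mice, and what sets them apart was not tested.

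**Figure D4:**
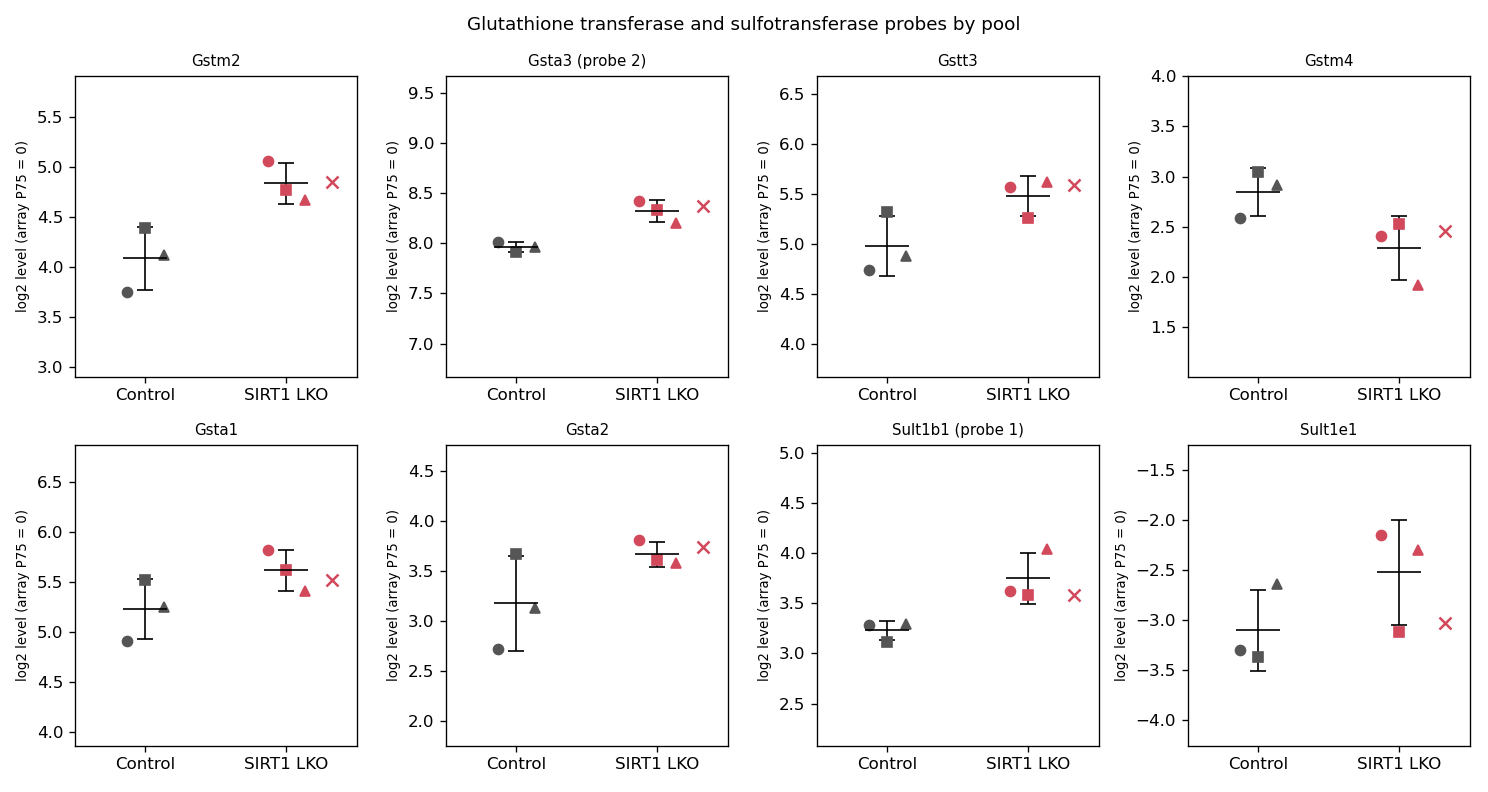
Level (log2, array 75th percentile = 0) of 6 glutathione transferase and 2 sulfotransferase probes in each pool; circles, squares and triangles are pools 1, 2 and 3, the cross is SIRT1 LKO pool 3 from the value table, bars are the mean ± SD of 3 pools, and each panel spans the same number of log2 units. Gstm2, the second Gsta3 probe, the first Sult1b1 probe and Gstm4 separate the groups, whereas Gstt3, Gsta1, Gsta2 and Sult1e1 overlap.

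Sulfotransferases were measured less completely, with 9 of 14 probes tested. Of these, 7 were higher in SIRT1 LKO and 2 lower, and 1 did not overlap between the groups, beside 28.9% of all probes. Without SIRT1 LKO pool 3 the count was 3 of 9, beside 51.7%. The probe separated with all pools was the first of Sult1b1, an enzyme of thyroid hormone and small phenols. It read 3.28, 3.12 and 3.29 in Control and 3.62, 3.58 and 4.05 in SIRT1 LKO, with every SIRT1 LKO pool above Control and a difference of 0.52 (SE 0.15, adjusted p = 0.136). SIRT1 LKO pool 3 stood highest, and with the value table the difference was 0.37 (adjusted p = 0.0753). The second Sult1b1 probe read 1.04, 0.70 and 0.76 against 0.94, 0.73 and 1.42, a difference of 0.20 that was 0.01 with the value table.

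Sult1e1, the oestrogen sulfotransferase, read -3.30, -3.36 and -2.64 in Control and -2.15, -3.12 and -2.30 in SIRT1 LKO. The groups overlapped and the difference of 0.58 (SE 0.31) had an adjusted p of 0.326. Sult5a1, whose substrates are little known, read 2.00, 1.60 and 1.11 against 0.90, 1.61 and 0.90, a difference of -0.43 (SE 0.29, adjusted p = 0.417) with overlap. With the value table it was -0.13. The phenol enzyme Sult1a1 differed by 0.17, Sult1c1 by -0.24, Sult1c2 by 0.04, the catecholamine enzyme Sult1d1 by 0.11 and the brain form Sult4a1 by 0.23 at the probe tested, all with an adjusted p of 0.272 or higher.

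Sult2a2 and Sult3a1, sulfotransferases known mainly from female mouse liver, gave little signal in these males. Both Sult2a2 probes, of a bile acid and steroid sulfotransferase, were not well above background on any array. Sult3a1 was above background on 0 of 3 Control and 2 of 3 SIRT1 LKO arrays, and Sult2b1, a cholesterol sulfotransferase, on 1 of 3 and 2 of 3. No fold is given for these genes. No array read either Sult2a2 probe well above background, and Sult2b1 was measured on only some arrays. The mean of Sult3a1 in SIRT1 LKO (-6.05) lay under -5.04, the mean over the Control arrays of their lowest levels called well above background.

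Genes that the scanner files carry under older names escaped the name rule. Among these was BC021614, which RefSeq now names Gstp3, a pi-class glutathione transferase. It read -1.09, -1.25 and -1.10 in Control and -0.15, -0.38 and -0.41 in SIRT1 LKO, with every SIRT1 LKO pool higher. The difference was 0.83 (SE 0.11, adjusted p = 0.0704), or 1.78-fold, with 0.76 under the value table (adjusted p = 0.0582) and 0.88 without SIRT1 LKO pool 3 (adjusted p = 0.0474). With the slide as a random block it was 0.82 (limma adjusted p = 0.342). Over 18 alternatives the limma adjusted p ran from 0.0120 to 0.721, below the threshold in 3. Gstp3 was named after its values were seen. Also renamed were Sult2a8, which differed by -0.04, and Gstt4, which was not tested.

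**Figure D5:**
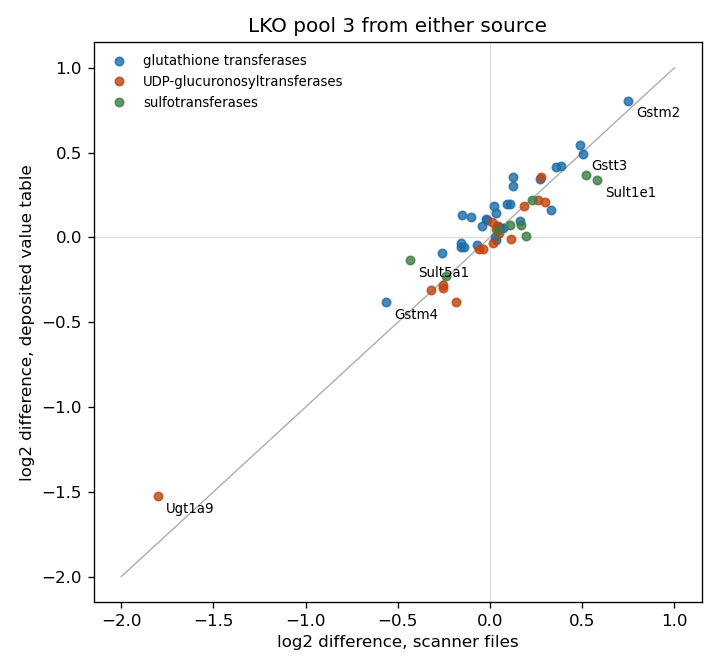
Log2 difference (SIRT1 LKO minus Control) of each tested member probe with SIRT1 LKO pool 3 from its scanner file (x axis) and from the value table (y axis); the line marks equality. The other 5 arrays are shared by both axes, Ugt1a9 stands at -1.80 and -1.53, and Gstm2 at 0.75 and 0.81.

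Genes that supply the donors and control these enzymes were read from the same fit, with the brightest tested probe of each gene. With the scanner files 0 of 63 tested genes on these 6 lists passed the threshold by limma, and 19 had an unadjusted limma p under 0.05, beside 0.0636% and 21.2% of all probes. Of the 6 genes listed for UDP-glucuronate supply 3 were higher and 3 lower. The smallest p belonged to Slc35b1, a transporter of the endoplasmic reticulum, at -0.46 (limma adjusted p = 0.136). Ugp2, which makes UDP-glucose, differed by 0.26 and Slc35a3 by 0.12. Whether Slc35b1 and Slc35a3 carry UDP-glucuronate was not tested. For the sulfate donor PAPS 6 of 7 were higher. Slc26a1, a sulfate transporter, was 4.71 ± 0.14 in Control and 5.28 ± 0.25 in SIRT1 LKO (SD, n = 3 each), a difference of 0.57 (adjusted p = 0.126) that passed with the value table at 0.68 (adjusted p = 0.0495). Over 18 alternatives its limma adjusted p ran from 0.0171 to 0.721, below the threshold in 2. The PAPS synthases differed in opposite directions, Papss1 by 0.64 (adjusted p = 0.247) and Papss2 by -0.33 (adjusted p = 0.161).

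For glutathione supply 3 of 9 tested genes were higher and 6 lower. Gclc, the catalytic subunit of the rate-limiting enzyme of glutathione synthesis, was 4.36 ± 0.18 in Control and 3.51 ± 0.15 in SIRT1 LKO (SD, n = 3 each). Its difference of -0.85 (SE 0.13) had an adjusted p of 0.0765. It passed at -0.94 under the value table (adjusted p = 0.0433) and also at -0.94 when SIRT1 LKO pool 3 was left out (adjusted p = 0.0475). Over 18 alternatives the limma adjusted p of Gclc ran from 0.0120 to 0.721, below the threshold in 4. Cth, which makes cysteine, differed by 0.35 and Ggt6 by 0.44. Among other conjugating and phase II enzymes 6 of 14 were higher and 8 lower, with As3mt, an arsenic methyltransferase, at 0.40 and the quinone reductase Nqo1 at 0.34. For deconjugation and conjugate transport 2 of 11 were higher and 9 lower. Abcg2, a canalicular efflux pump, differed by -0.49 (adjusted p = 0.137), the sulfatase Arsa by -0.39 and the uptake carrier Slco1b2 by -0.23.

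Of the 16 xenobiotic and liver regulators, 11 were higher and 5 lower. Keap1, the inhibitor of the antioxidant factor NRF2, was 3.61 ± 0.10 in Control and 3.07 ± 0.14 in SIRT1 LKO (SD, n = 3 each), a difference of -0.54 (adjusted p = 0.0954) that passed without SIRT1 LKO pool 3 (-0.61, adjusted p = 0.0491). Over 18 alternatives its limma adjusted p ran from 0.0150 to 0.728, below the threshold in 2. Arnt, the partner of the Ah receptor, differed by 0.58 (adjusted p = 0.0974). Cux2, a female-biased liver factor, was above background on 0 of 3 Control arrays. It entered the test only through the SIRT1 LKO arrays, where its mean was -4.92. Cux2 is counted among the 11 higher, but no fold or p-value is given, since its Control level was not measured above background. Of the members that are textbook NRF2 targets, 6 of 9 were higher and 3 lower, with a median of 0.12, and 0.31 with the value table.

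Marker sums of other cell types were read beside these results, as the sum of linear levels of a list's tested probes in each pool. The adipocyte list ran from 187 to 199 in Control and from 97.3 to 161 in SIRT1 LKO. Of its 8 genes 4 were tested (Cfd at -3.44, Car3 at -0.57, Fabp4 at 0.29 and Cidec at -0.003), and Adipoq, Plin1, Retn and Lep did not pass the background filter. Car3 made most of this sum, with a Control mean of 7.56 beside 2.11 for Fabp4, 0.75 for Cidec and -1.20 for Cfd. The sum therefore mainly follows 1 gene and is no measure of adipocyte content. The stellate cell sum was 46.8 to 52.3 in Control and 35.8 to 47.0 in SIRT1 LKO. Most of it came from Dcn, with a Control mean of 5.24 and a difference of -0.40. Of the 8 stellate genes tested 4 were higher and 4 lower in SIRT1 LKO, with a median difference of 0.02. The kidney tubule sum, with 2 of 6 genes tested, was 0.467 to 0.544 in Control and 0.265 to 0.439 in SIRT1 LKO. The cholangiocyte sum was 7.64 to 8.65 against 7.30 to 10.2 and the hepatocyte sum 1708 to 1924 against 1669 to 2073. Most of the cholangiocyte sum came from Spp1, with a Control mean of 2.79 and a difference of 0.19. Of the 7 cholangiocyte genes tested 6 were higher and 1 lower. The lower gene was Sox9, at -1.12 (limma adjusted p = 0.0654) and at -0.65 with the value table. The Kupffer cell, endothelial, erythroid, lymphocyte, acinar, pericentral and periportal sums overlapped between the groups with the scanner files. From the value table SIRT1 LKO pool 3 had a sum of 129 for the adipocyte list, 48.8 for stellate cells, 0.439 for kidney tubule and 2175 for hepatocytes, and its Kupffer cell sum was 121, above the Control range of 51.4 to 90.1, where the scanner file gave 62.4. The part of these cell types in the member values was not tested.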

How the data were processed

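Scanner files give spot intensities from Agilent Feature Extraction (version 9.5 in the submitters' processing notes). Per the file headers, the processed intensity had background subtracted and a spatial trend removed. The value table holds 1 intensity per probe and array that the authors made with the Rosetta Resolver error model, per the labels; it has neither log scale nor centring between arrays (columns were set against the scanner files), and how the last SIRT1 LKO column was made is not stated. Flags per spot are 0 or 1 values as deposited.

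Spots that the scanner marked as outliers were set missing, log2 values of 1 probe's spots averaged, and the array's 75th percentile subtracted. Limma 3.58.1 (lmFit and eBayes, genotype only, R 4.3.3) gave two-sided p-values with Benjamini-Hochberg adjustment over 23590 probes and a threshold of 0.05. Of the member probes 59 had a current RefSeq symbol (GRCm38.p6) and 61 an mm7 position. The fit was tested on simulated data. Members and lists were chosen with earlier results of these data known. Named were Sirt1, the 8 genes of each family with the smallest p, members whose probes disagree in sign, textbook members regardless of result (Gstp2, Ugt1a6a, Ugt2b36 and Sult2a1 had no probe under those names), and the 3 genes of each list with the smallest p. Figures were drawn with matplotlib 3.10.9. Groups and pool numbers come from the sample titles. Same-numbered pools did not deviate together (correlations 0.01, -0.04 and -0.09), so the numbers name pools and pair nothing. Alternatives were normexp background (offset 50), quantile normalization, median centring, 2 other filters, outlier spots kept, the brightest probe per gene, current RefSeq symbols, a block for slide (random) or for pool number, a variance trend with robust fitting, weighted arrays, the value table, and leaving out each pool.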

Additional observations from a re-analysis of the deposited data

How the results depend on the processing

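With 3 pools a side, dim probes such as Sult1e1 and the second Gstcd probe, and pool 3 of SIRT1 LKO, limit what these arrays can separate. The count of members past the threshold was 0 with the scanner files and 0 under the alternatives apart from 1 (Ugt1a9) with trend and robust variance, 11 with array weights, 1 (Ugt1a9) with the value table, and 0 to 1 when a pool was left out, the 1 being Ugt1a9 without SIRT1 LKO pool 3. The count of all probes past the threshold was 15 and ran from 0 (normexp, no filter on dim probes, slide as a block, and any pool other than SIRT1 LKO pool 3 left out) to 49 (above background on all 6 arrays), 24 (brightest probe per gene, 16511 tested), 91 (trend and robust), 308 (value table), 698 (without SIRT1 LKO pool 3) and 4814 (array weights). The replicate block gave 0 members and 0 probes past the threshold, and the pool numbers do not pair the samples. Ugt1a9 was lower under all 18 alternatives, at -2.0 to -1.45 (limma adjusted p 0.0120 to 0.721, below the threshold in 4), and Gstm2 was higher in all 18, at 0.52 to 0.90 (adjusted p 0.0426 to 0.721, below the threshold in 1, array weights). The median of the glucuronosyltransferases was -0.069 with normexp and 0.094 with array weights; those of the other families were -0.03 to 0.11 (glutathione transferases) and 0.07 to 0.26 (sulfotransferases). Without a filter on dim probes the median of all probes was -0.10. The cause of these shifts was not tested.

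Members whose small difference changed sign, none of them past the threshold with the scanner files, were as follows. With normexp correction the difference stood for Ugt1a6b probe 2 at -0.19, Ugt2a1 probe 2 at -0.030, Ugt2b1 at -0.029, Ugt2b34 at -0.12, Ugt2b37 probe 1 at -0.069, Ugt2b5 at -0.051, Gstcd probe 1 at 0.079, Gstm1 probe 1 at -0.11, Gstm6 at -0.27, Gstm7 probe 2 at -0.040, Gsto2 probe 2 at 0.056, Gstt1 at -0.14, Gstt2 at -0.15, Gstz1 at -0.035, Mgst1 probe 1 at -0.011, Mgst1 probe 2 at -0.037 and Sult1d1 at -0.031. Quantile normalization put Ugt2b1 at -0.021, Ugt2b34 at -0.038, Ugt2b37 probe 1 at -0.0056, Ugt2b5 at -0.023, Gstm6 at -0.015, Gstt1 at -0.0065, Gstt2 at -0.030 and Gstz1 at -0.0098. The slide block put Ugt2b34 at -0.0027 and Ugt2b37 probe 1 at -0.0068. Array weights put Ugt2b37 probe 2 at 0.094, Ugt2b38 at 0.015, Gsta3 probe 1 at 0.061, Gstcd probe 2 at -0.18, Gstm7 probe 2 at -0.045, Gstp1 probe 2 at 0.13, Mgst2 at -0.073, Sult1a1 at -0.073 and Sult2a8 at 0.077. In the value table the difference stood for Ugt1a1 at -0.0083, Ugt2b34 at -0.032, Gsta3 probe 1 at 0.10, Gstk1 at 0.066, Gstm3 at 0.11, Gstm6 at -0.016, Gstp1 probe 1 at 0.12, Gstp1 probe 2 at 0.13 and Sult2a8 at 0.0028. With 1 pool left out at a time the ranges were -0.030 to 0.13 for Ugt1a6b probe 2, -0.047 to 0.098 for Ugt2b1, -0.16 to 0.11 for Ugt2b34, -0.048 to 0.089 for Ugt2b37 probe 1, -0.11 to 0.052 for Ugt2b37 probe 2, -0.12 to 0.016 for Ugt2b38, -0.051 to 0.11 for Ugt2b5, -0.10 to 0.094 for Gsta3 probe 1, -0.082 to 0.38 for Gsta4, -0.14 to 0.52 for Gstcd probe 2, -0.11 to 0.030 for Gstk1, -0.11 to 0.055 for Gstm3, -0.025 to 0.062 for Gstm6, -0.032 to 0.16 for Gstm7 probe 2, -0.18 to 0.045 for Gstp1 probe 1, -0.40 to 0.092 for Gstp1 probe 2, -0.090 to 0.13 for Gstt2, -0.070 to 0.18 for Mgst1 probe 1, -0.35 to 0.29 for Mgst2, -0.012 to 0.35 for Mgst3 probe 2, -0.046 to 0.16 for Sult1c2, -0.014 to 0.26 for Sult1d1 and -0.096 to 0.033 for Sult2a8.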
